A study of Mus musculus with 24 samples.

Results

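Peroxisome biogenesis and peroxisomal oxidation were followed through 29 genes in splenic B cells of Balb/c mice: 13 peroxins, 3 ABC transporters of subfamily D and 13 enzymes of fatty acid oxidation. The members were chosen by what their products do, with earlier results of these data known, and all 29 were found among the 23420 genes measured. Pex11g stands in the deposited values under its RefSeq synonym Pex11c. Poly(A) RNA was sequenced from cells that had been enriched on beads and sorted by flow cytometry. The 24 libraries form 8 groups of 3: naive cells, cells activated in vitro for 4 h, 12 h and 24 h, cells activated in vivo, and early, peak and late germinal centre (GC) cells. No genetic change, stimulus, immunisation, age or sort gate is given in the labels for any group, and they do not say whether replicates came from separate animals or cultures. The p-values therefore measure the spread between these libraries, which may be technical.

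Peroxisomes are small organelles that shorten very long chain, branched and other fatty acids which mitochondria handle poorly, and that break down the hydrogen peroxide formed on the way. Peroxins build the organelle: receptors carry folded enzymes from the cytosol to a docking complex, a ubiquitin ligase and an ATPase recycle the receptors, and a further set inserts membrane proteins and divides the organelle. Transporters bring in acyl-CoAs, an oxidase opens each round of beta-oxidation, a bifunctional enzyme and a thiolase complete it, and auxiliary enzymes deal with double bonds and methyl branches. GC B cells divide fast and have been studied for their use of fatty acids as fuel.

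Values are log2 levels on a CPM-like scale (reads scaled to a common library size), as deposited, and the sequencing depth behind them is not known. A value under -5 is called at the floor and read as not detected. The cut of -5 was set here, and the most frequent deposited value was -6.178. A difference of 1 on this scale is a doubling. The 5 B cell markers were present in every group, and the summed level of the 5 GC markers was 1883 to 2461 (linear scale) in GC libraries against 160 to 164 in naive libraries. Markers of other cells differed between groups. The 8 macrophage and monocyte markers summed to 44.8 to 51.7 in naive, 34.1 to 44.0 in in vivo activated, 178 to 314 in early, 115 to 266 in peak and 494 to 2115 in late GC libraries, and none was at the floor throughout a group. The neutrophil markers summed to 70.9 to 997 in late GC and 20.1 to 85.7 in peak GC libraries. The erythroid markers summed to 731 to 1396 and 170 to 203 in the same 2 groups. Late GC replicate 1 held the highest sum of each of these 3 marker lists. Of 4 Y-linked genes, all were above the floor in every naive and in vitro library, and 3 or 4 were at the floor in every in vivo activated and GC library. Donor sex and group can therefore not be told apart wherever these 2 sets of groups are compared.

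All 29 members differed between the 8 groups (limma F test, adjusted p under 0.05), beside 99.7% of the 11885 genes tested. Because 99.7% of genes passed, the count says nothing about the members. The members did not move as 1 block. In vivo activated cells had the highest mean for 9 members, 12 h cells for 5, 24 h cells for 4, 4 h and peak GC cells for 3 each, naive and late GC cells for 2 each and early GC cells for 1. The lowest mean fell in 4 h cells for 10 members and in late GC cells for 9. The highest and lowest groups of all genes tested were not counted, so these counts do not set the members apart. Those lowest at 4 h were Pex6, Pex7 and 8 oxidation enzymes: Ehhadh, Acaa1a, Scp2, Decr2, Ech1, Acot8, Phyh and Hacl1. Those lowest in late GC cells were Pex10, Pex11a, Pex11g, Pex19, Pex26, Abcd4, Acaa1b, Pecr and Amacr. Per kilobase of exon, the highest mean levels over the 8 groups were those of Phyh (5.36 log2), Scp2 (4.87) and Ech1 (4.28). The lowest were those of Abcd2 (-5.61) and Pex11a (-3.01).

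**Figure D1:**
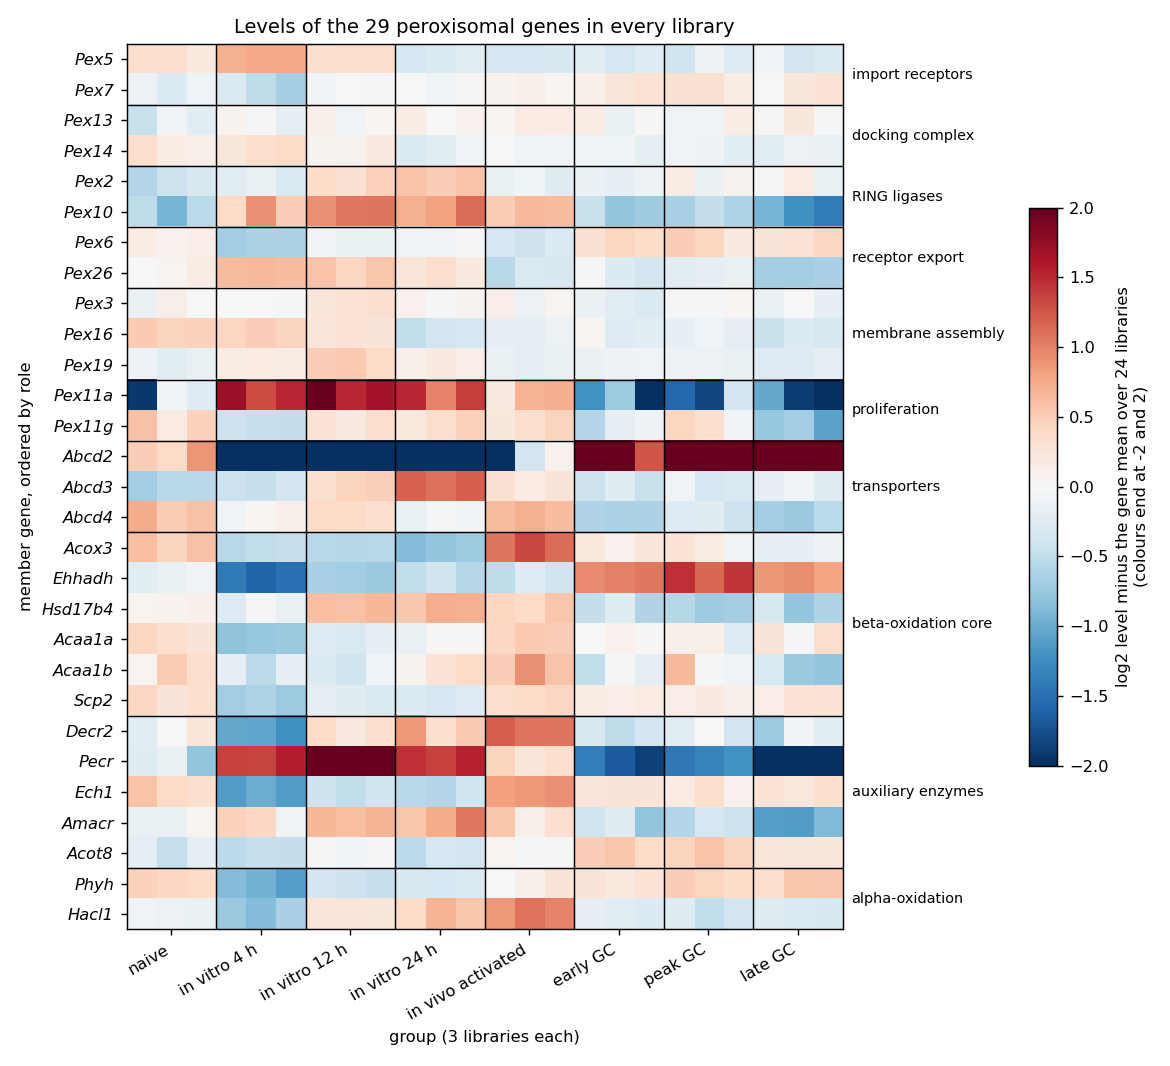
Level of each member (rows, ordered by role) in each of the 24 libraries (columns, 3 per group), shown as the log2 level minus that gene's mean over all libraries, with colours ending at -2 and 2. The block of oxidation enzymes is blue at 4 h in vitro except Pecr and Amacr, Ehhadh is red in all 9 GC libraries, and Abcd2 runs from the floor in vitro to its highest values in GC libraries.

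The import receptors moved in different directions. Pex5, the cytosolic receptor for most matrix enzymes, was highest at 4 h in vitro, with 5.87, 5.94 and 5.93 in the 3 libraries against 5.50, 5.49 and 5.36 in naive cells. By 24 h it stood at 4.80, 4.87 and 4.95, below every naive library, and the in vivo activated and GC groups lay at that lower level too. Pex7, the receptor for enzymes with the other targeting signal, had 4.39, 4.18 and 4.01 at 4 h, 4.57, 4.40 and 4.59 in naive cells and 4.98, 4.98 and 4.82 in peak GC cells. Its peak GC libraries were all above its naive libraries. Pex13 and Pex14 form the docking complex at the membrane. Pex13 ranged from 4.10 to 4.77 and Pex14 from 4.60 to 5.27 over the 24 libraries, and the group means of Pex13 spanned the narrowest range of all members, 0.36.

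Among the ubiquitin ligase subunits, Pex2 and Pex10 both stood higher in vitro. Pex10 had 1.68, 1.26 and 1.65 in naive cells, 3.11, 3.24 and 3.25 at 12 h and 2.69, 2.83 and 2.80 after activation in vivo, but 1.54, 1.71 and 1.57 in peak and 1.26, 0.96 and 0.78 in late GC cells. The 4 activated groups lay above all naive and GC libraries without overlap. Pex2 was at 4.37, 4.55 and 4.65 in naive cells, compared with 5.53, 5.45 and 5.54 after 24 h. The ATPase Pex6, which pulls spent receptors out of the membrane, went the other way from its membrane anchor Pex26 at 4 h. Pex6 had 5.80, 5.74 and 5.78 in naive cells, 4.95, 5.02 and 5.01 at 4 h and 5.96, 6.08 and 6.01 in early GC cells, its highest group. Pex26 had 2.37, 2.43 and 2.52 in naive cells, 3.02, 3.02 and 3.0 at 4 h and 1.70, 1.68 and 1.74 in late GC cells, its lowest group.

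The 3 factors that insert membrane proteins differed from each other. Pex16 had 4.71, 4.62 and 4.64 in naive and 4.62, 4.67 and 4.62 in 4 h cells, which overlapped, and 3.69, 3.79 and 3.85 at 24 h. All in vivo activated and GC libraries of Pex16 lay between 3.73 and 4.24, under every naive library. Pex19, the chaperone of membrane proteins, was highest at 12 h with 6.28, 6.30 and 6.19, against 5.66, 5.57 and 5.63 in naive cells. Pex3, its docking factor, ranged only from 4.25 to 4.86, with its highest mean at 12 h. The Pex11 proteins elongate and divide the organelle. Pex11a was low throughout, with -3.27, -1.39 and -1.60 in naive cells, 0.98, 0.17 and 0.33 at 12 h and -2.36, -3.24 and -3.65 in late GC cells, and its 9 in vitro libraries lay above all others without overlap. Pex11g had 2.47, 2.04 and 2.34 in naive cells, 1.47, 1.41 and 1.40 at 4 h, 2.31, 2.20 and 1.82 in peak and 1.13, 1.19 and 0.81 in late GC cells.

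Of the transporters, Abcd3, a transporter of branched and long acyl-CoAs (chr3:121758774-121815302 of mm10), was higher at each later time in culture. Its values were 4.45, 4.59 and 4.59 in naive cells, 4.72, 4.68 and 4.76 at 4 h, 5.47, 5.59 and 5.63 at 12 h and 6.32, 6.25 and 6.34 at 24 h, and none of these 4 groups overlapped. In vivo activated cells had 5.45, 5.31 and 5.41 and peak GC cells 5.08, 4.79 and 4.84. Abcd4 belongs to the family by sequence but is known as a lysosomal cobalamin transporter. Its values were 3.94, 3.71 and 3.78 in naive, 3.83, 3.90 and 3.82 in in vivo activated and 2.59, 2.56 and 2.56 in early GC cells, with the 9 GC libraries below all others.

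Ehhadh, the bifunctional enzyme of the inducible beta-oxidation route (chr16:21761287-21787807, minus strand), was, with Acot8, one of the oxidation enzymes with all 9 GC libraries above every other library. Its values were 3.06, 3.13 and 3.21 in naive cells, 1.86, 1.68 and 1.79 at 4 h, 2.63, 2.58 and 2.53 at 12 h, 2.79, 2.88 and 2.70 at 24 h and 2.77, 3.02 and 2.88 after activation in vivo. They were 4.22, 4.29 and 4.33 in early, 4.73, 4.43 and 4.71 in peak and 4.16, 4.21 and 4.06 in late GC cells. The lowest values were those at 4 h. Hsd17b4, the bifunctional enzyme for branched and very long chains, went the opposite way. It had 5.35, 5.37 and 5.40 in naive cells, 5.85, 6.03 and 6.02 at 24 h and 4.74, 4.60 and 4.62 in peak GC cells, and all 9 GC libraries lay under all other libraries except that early GC replicate 2 overlapped the lowest 4 h library.

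Acox3, an acyl-CoA oxidase that starts the oxidation of branched chains (chr5:35583040-35615352), had 6.46, 6.31 and 6.46 in naive cells and 6.94, 7.20 and 6.99 after activation in vivo, its highest group. At 24 h in vitro it had 5.0, 5.08 and 5.14, its lowest group, and in peak GC cells 6.14, 6.02 and 5.79. The thiolase Acaa1a had 5.08, 4.97 and 4.91 in naive cells, 3.85, 3.89 and 3.90 at 4 h and 5.06, 5.18 and 5.15 after activation in vivo. Its near copy Acaa1b stayed between -0.87 and 0.83. The longest transcripts of the pair were identical at 95.7% of 1471 aligned bases, so reads can be split between them and both are uncertain. Scp2, which yields a branched-chain thiolase and a lipid carrier, had 7.07, 6.92 and 6.98 in naive cells, 5.96, 6.04 and 5.94 at 4 h and 7.01, 7.03 and 7.08 after activation in vivo. Its 4 h libraries were below all other libraries.

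Among auxiliary enzymes, Pecr, a reductase of trans-enoyl-CoAs (chr1:72259167-72284314), had the widest range of group means of any member above the floor throughout. It had 1.82, 1.93 and 1.27 in naive cells, 3.43, 3.42 and 3.63 at 4 h, 4.37, 4.39 and 4.49 at 12 h and 3.53, 3.42 and 3.60 at 24 h. After activation in vivo it had 2.52, 2.30 and 2.40, and it had 0.64, 0.72 and 0.85 in peak and -0.47, -0.07 and 0.06 in late GC cells. The 12 in vitro and in vivo activated libraries lay above all naive and GC libraries. Ech1, an isomerase of dienoyl-CoAs found in peroxisomes and mitochondria, had 6.05, 5.87 and 5.81 in naive cells, 4.36, 4.47 and 4.35 at 4 h, 4.92, 4.89 and 5.07 at 24 h, 6.30, 6.34 and 6.39 after activation in vivo and 5.64, 5.81 and 5.56 in peak GC cells. Decr2, a dienoyl-CoA reductase, had 1.73, 1.94 and 2.19 in naive cells, 0.92, 0.90 and 0.71 at 4 h and 3.15, 3.03 and 3.0 after activation in vivo. Amacr, the racemase for methyl-branched chains, ranged from 1.03 to 3.21, with its highest mean at 24 h and its lowest in late GC cells. Acot8, an acyl-CoA thioesterase, had 3.46, 3.18 and 3.46 in naive and 4.08, 4.21 and 4.09 in peak GC cells, with all 9 GC libraries above all others.

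The alpha-oxidation enzymes Phyh, the hydroxylase of phytanoyl-CoA (chr2:4919019-4938730), and Hacl1, the lyase of the next step, shared a minimum at 4 h. Phyh had 6.75, 6.69 and 6.68 in naive cells, 5.42, 5.34 and 5.18 at 4 h, 5.96, 5.94 and 6.0 at 24 h and 6.62, 6.84 and 6.82 in late GC cells. Hacl1 had 2.87, 2.83 and 2.82 in naive cells, 2.21, 2.08 and 2.31 at 4 h, 3.32, 3.63 and 3.50 at 24 h and 3.82, 4.03 and 3.94 after activation in vivo. Of the Hacl1 exon bases, 31.1% are shared with a same-strand gene model, Gm49387, so part of its reads may not be its own. Exons of Acot8, Acaa1b, Pex16, Acaa1a and Pex3 overlap those of a gene on the opposite strand over 5.25% to 12.3% of their bases. The kit keeps strand, but whether counting used it is not given in the sources used here.

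**Figure D2:**
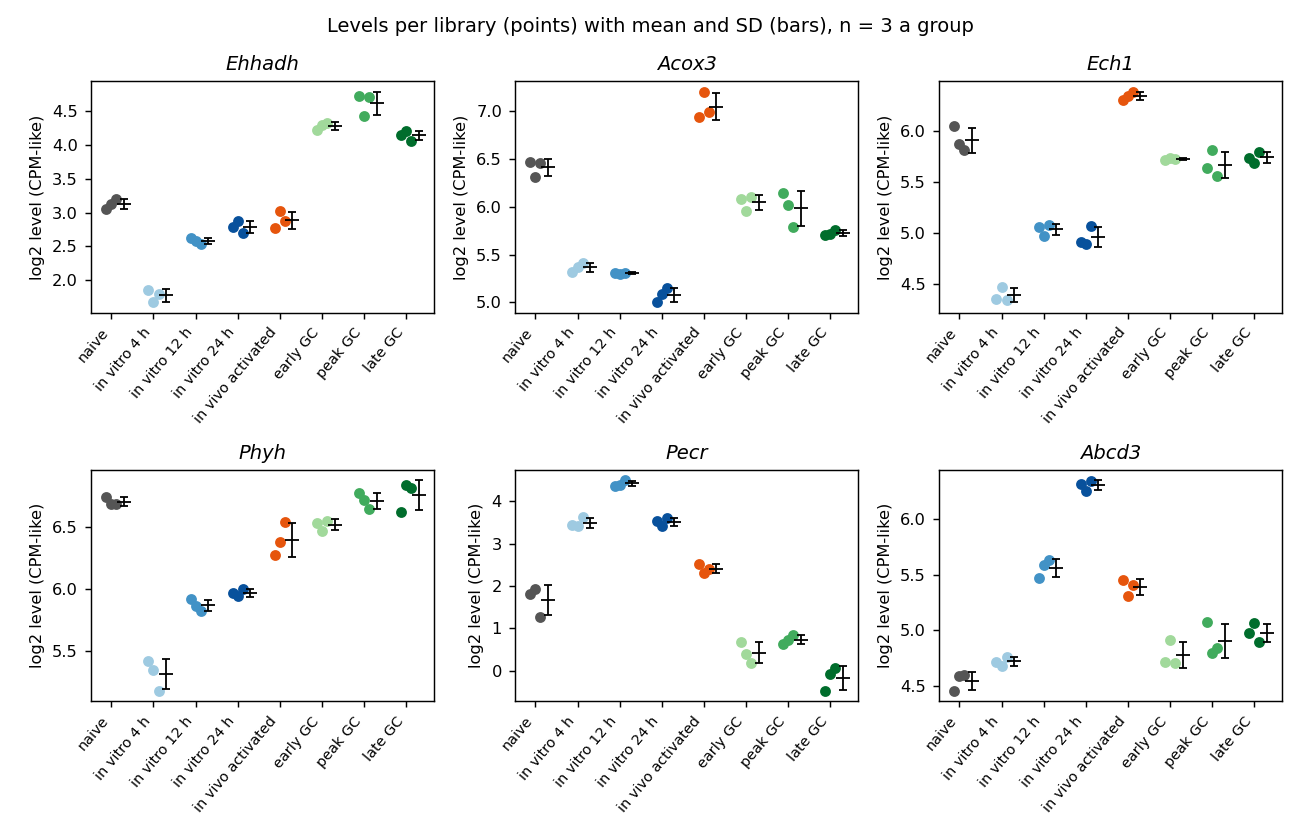
Log2 levels of 6 members in every library (points, coloured by group) with the mean and SD of each group of 3 (black bars), on axes that do not start at 0. Ehhadh is highest in the 3 GC groups, Acox3 and Ech1 in in vivo activated cells, Pecr at 12 h and Abcd3 at 24 h, and Phyh is lowest at 4 h.

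Promoter sequence is shown for 3 of the 8 oxidation enzymes that were lowest at 4 h: Phyh and Scp2, the ones of the 8 that hold the motif searched, and Ehhadh, which lacks it and was highest in GC cells. Each window spans 300 bases around a RefSeq start on GRCm38.p6, 5′ to 3′ on the gene's own strand. For Scp2 that window lies inside the gene as annotated by GENCODE (chr4:108043839-108144998, minus strand) and not at its outer start. Capitals mark the PPAR motif AGGTCA, the core letters bound by PPAR and other nuclear receptors that control many peroxisomal genes, found on either strand.
Phyh promoter (chr2:4918746-4919045, plus strand): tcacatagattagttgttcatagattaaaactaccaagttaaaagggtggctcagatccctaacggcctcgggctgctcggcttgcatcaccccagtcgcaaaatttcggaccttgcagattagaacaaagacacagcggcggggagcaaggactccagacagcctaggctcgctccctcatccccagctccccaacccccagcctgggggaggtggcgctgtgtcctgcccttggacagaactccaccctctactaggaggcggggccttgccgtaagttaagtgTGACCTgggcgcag
Scp2 promoter (chr4:108118498-108118797, minus strand): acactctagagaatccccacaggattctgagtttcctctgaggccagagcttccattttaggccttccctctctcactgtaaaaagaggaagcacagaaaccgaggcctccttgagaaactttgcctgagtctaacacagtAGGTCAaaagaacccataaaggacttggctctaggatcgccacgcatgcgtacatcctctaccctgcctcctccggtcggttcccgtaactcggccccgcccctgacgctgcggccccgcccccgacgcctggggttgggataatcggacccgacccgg
Ehhadh promoter (chr16:21787785-21788084, minus strand): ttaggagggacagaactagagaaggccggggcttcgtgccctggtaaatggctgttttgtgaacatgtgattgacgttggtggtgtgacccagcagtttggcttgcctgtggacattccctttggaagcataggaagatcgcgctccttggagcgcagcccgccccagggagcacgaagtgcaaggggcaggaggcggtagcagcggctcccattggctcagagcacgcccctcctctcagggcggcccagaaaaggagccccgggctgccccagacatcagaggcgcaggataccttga
A window was held for 23 members. The motif was in that of 3 of them, Phyh, Scp2 and Pex11g, and was not in those of Acaa1a, Decr2, Ech1, Acot8 and Hacl1, which were lowest at 4 h too. It was in 16.3% of all 32851 promoters. Its direct repeat with 1 base between, AGGTCANAGGTCA, was in 0 member windows and in 0.0396% of all promoters. The E-box CACGTG (7.15% of all promoters) and the NRF1 core GCGCATG (3.91%) were in none of them. A match is a description of letters and not of binding.

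After 4 h of activation in vitro most oxidation enzymes fell, while peroxins moved in both directions. Of the 13 enzymes, 11 were lower than in naive cells and 1 was higher, with a median difference of -1.01 on the log2 scale. Of the 11, Hsd17b4 lost its call with a replicate block and without any 1 of 5 of the 6 libraries, Acot8 without naive replicate 1, naive replicate 3 or 4 h replicate 1, and Acaa1b without naive replicate 2, naive replicate 3 or 4 h replicate 2. Of the 13 peroxins, 6 were higher and 3 lower, with a median of 0.18. The call of Pex2 as higher was lost without naive replicate 1, 4 h replicate 1 or 4 h replicate 2. Over all 29 members, 8 were higher, beside 38.9% of all genes tested, and 16 were lower, beside 39.1%, with a median of -0.22 against -0.01 for all genes. The enzymes with the largest falls were Ech1 (-1.51 ± 0.07 SE, 2.86-fold lower, adjusted p 1.93e-15), Phyh (-1.39 ± 0.07, adjusted p 9.26e-15) and Ehhadh (-1.36 ± 0.09, adjusted p 5.51e-12). Acaa1a (-1.11), Decr2 (-1.11), Acox3 (-1.05) and Scp2 (-1.01) were each lower by 2-fold or more. Pecr went the other way (1.82 ± 0.16, adjusted p 5.31e-10). Among peroxins, Pex11a rose by 2.26 ± 0.50, Pex10 by 1.26 ± 0.16 and Pex26 by 0.57 ± 0.11, while Pex11g (-0.86) and Pex6 (-0.78) were lower. Pex11a passed the filter for testing (a log2 value of at least 0 in at least 3 libraries) only through in vitro libraries. Its differences in vitro are therefore descriptive, since the test draws on the values that admitted it. Its place among the 6 peroxins and the 8 members called higher is descriptive too. Abcd2 had -6.14, -5.09 and -5.17 in the 4 h libraries, all under the cut of -5, and -2.54, -2.66 and -2.15 in naive ones, so no fold is given. The summed level of the B cell markers was 2429 to 2630 at 4 h against 5748 to 6080 in naive cells. Other sums were lower at 4 h too: macrophage and monocyte (14.0 to 17.5 against 44.8 to 51.7), erythroid (5.11 to 9.19 against 89.4 to 99.9) and stromal (48.2 to 53.8 against 255 to 296). Those of T cell (157 to 166 against 45.1 to 53.3), dendritic cell (56.1 to 59.0 against 38.1 to 39.8) and plasma cell markers (1987 to 2053 against 1462 to 1682) were higher. The part of such shifts in these values was not tested.

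**Figure D3:**
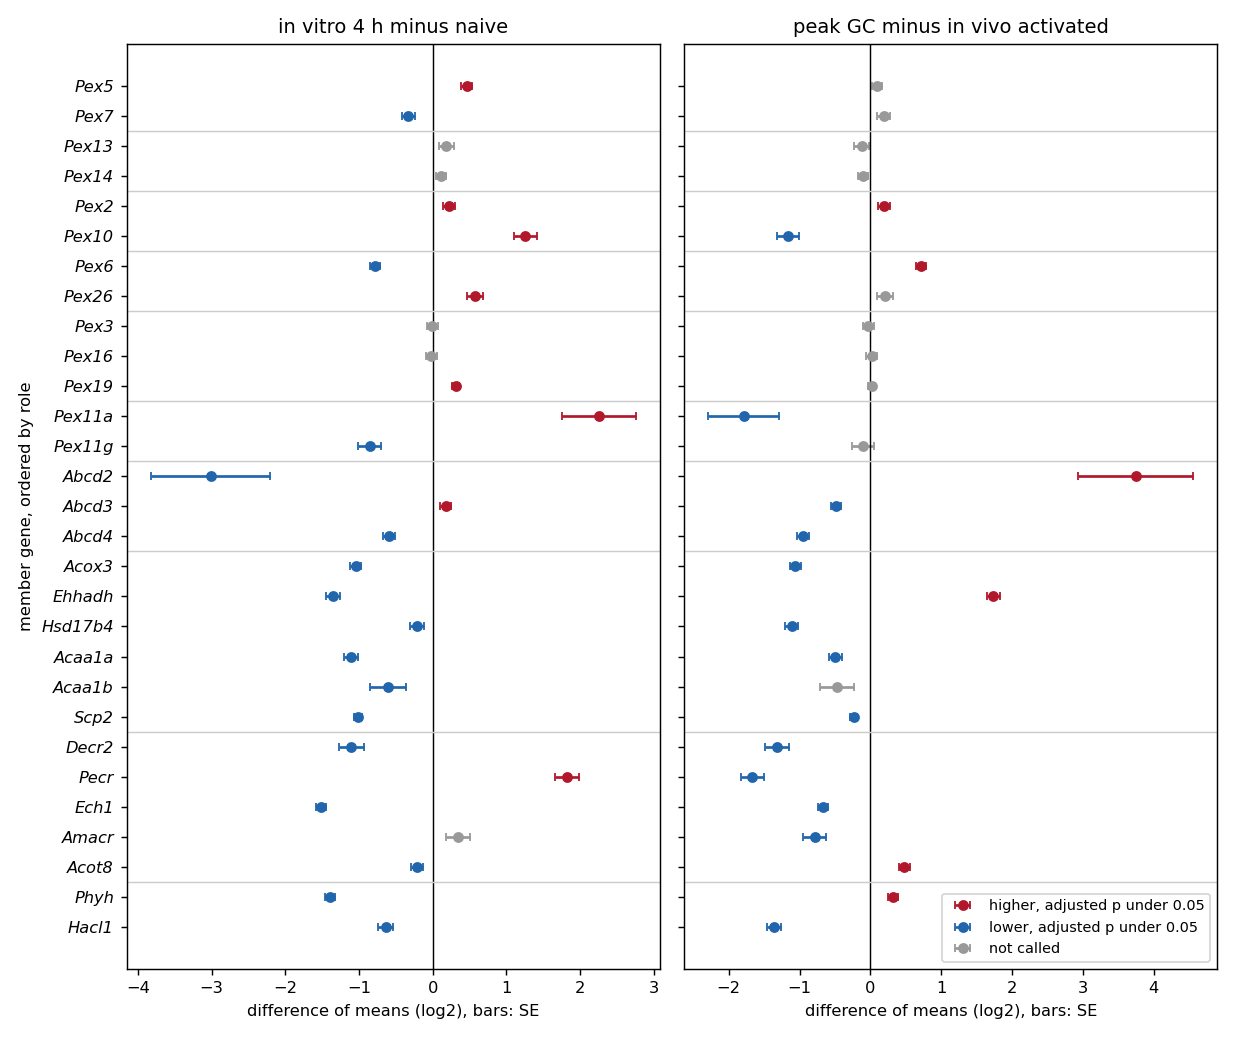
Difference of group means on the log2 scale for each member (rows, by role), with its standard error as a bar, in red or blue where the adjusted p was under 0.05 and grey where it was not. At 4 h against naive cells, 11 of 13 oxidation enzymes lie left of 0 in blue, and in peak GC against in vivo activated cells 9 do, with Ehhadh, Acot8 and Phyh to the right. The position of Abcd2 depends on where the floor of the scale lies, since libraries at the floor enter both of its differences.

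By 24 h in vitro the enzymes no longer stood on one side of naive cells. Of the 13, 5 were higher and 6 lower, with a median of -0.14. Over all members 11 were higher (42.2% of all genes) and 12 lower (42.5%). Pecr stayed 1.84 ± 0.16 above naive (adjusted p 2.83e-10) and Abcd3 reached 1.76 ± 0.08 (adjusted p 3.1e-16), 3.39-fold. Pex11a (2.04 ± 0.50) and Pex10 (1.54 ± 0.16, adjusted p 3.96e-09) also remained higher. The limit given for Pex11a at 4 h, that only in vitro libraries passed it through the filter, holds at 24 h too. Its place among the 11 members called higher is descriptive. The largest falls outside Abcd2 were those of Acox3 (-1.34 ± 0.08, adjusted p 7.77e-14), Ech1 (-0.95 ± 0.07, adjusted p 7.32e-12) and Pex16 (-0.88 ± 0.08, adjusted p 1.59e-10). Abcd2 was at the floor in all 24 h libraries. These differences share the naive libraries with those at 4 h.

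The direct comparison of 24 h with 4 h was added after the values had been seen. Of the 13 enzymes, 10 were higher at 24 h and 1, Acox3, was lower (-0.29 ± 0.08, adjusted p 0.00167), with a median of 0.57. Over all members 15 were higher (36.8% of all genes) and 5 lower (39.2%), with a median of 0.38 against -0.03 for all genes. Decr2 was higher by 1.67 ± 0.17 (adjusted p 5.78e-09), Abcd3 by 1.58 ± 0.08 (adjusted p 7.53e-15), Hacl1 by 1.28 ± 0.10 (adjusted p 3.62e-11) and Ehhadh by 1.01 ± 0.09 (adjusted p 1.45e-09). Pecr differed by 0.02 ± 0.16 with a 95% interval of -0.32 to 0.36. The 5 lower members were Pex5 (-1.04), Pex16 (-0.86), Pex14 (-0.51), Pex26 (-0.37) and Acox3.

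Activation in vivo went with higher levels of most oxidation enzymes. Against naive cells 8 of 13 were higher and 2, Phyh and Ehhadh, were lower, with a median of 0.39. The call of Ehhadh was lost without in vivo activated replicate 1, in vivo activated replicate 3 or naive replicate 3, and that of Amacr as higher without any 1 of 4 of the 6 libraries. Over all members 14 were higher (39.2% of all genes) and 7 lower (40.1%), with a median of 0.22 against -0.02 for all genes. Pex10 was higher by 1.24 ± 0.16 (adjusted p 1.75e-07), Decr2 by 1.11 ± 0.17 (adjusted p 2.61e-06) and Hacl1 by 1.09 ± 0.10 (adjusted p 4.27e-10). Pex11a was higher by 1.28 ± 0.50 (adjusted p 0.0228), a call lost without naive replicate 1, in vivo activated replicate 2 or in vivo activated replicate 3, with differences of 0.69, 1.20 and 1.18. That call was also lost with no filter on low values. The lower members were led by Pex5 (-0.64 ± 0.07), Pex16 (-0.63 ± 0.08), Pex6 (-0.47 ± 0.07) and Pex26 (-0.45 ± 0.11), so 5 peroxins rose and 5 fell. Besides that of Pex11a, the rise of Pex7 lost its call without in vivo activated replicate 1, in vivo activated replicate 2 or naive replicate 2. It was also lost with no filter on low values. The fall of Pex14 lost its call without naive replicate 1.

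Set directly against 24 h in vitro, in vivo activated cells had 8 oxidation enzymes higher and 2 lower, with a median of 0.43. Over all members 11 were higher (33.6% of all genes) and 7 lower (36.3%). Acox3 was 3.91-fold higher (1.97 ± 0.08, adjusted p 6.42e-16) and Ech1 2.6-fold higher (1.38 ± 0.07, adjusted p 4.41e-14), and Abcd4 was higher by 0.73 ± 0.09. Pecr (-1.11 ± 0.16), Abcd3 (-0.92 ± 0.08), Pex2 (-0.70 ± 0.08) and Pex26 (-0.65 ± 0.11) were the largest falls. Abcd2 was also called higher, with -6.14, -3.42 and -2.95 in vivo against the floor at 24 h, but 1 of those in vivo libraries was at the floor as well. The call was lost with no filter on low values and without in vivo activated replicate 2 or 3 or any 24 h library.

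In peak GC cells Ehhadh and Acot8 were higher than in naive cells. Of the 13 enzymes these 2 were higher, 8 were lower and Acaa1b, Decr2 and Phyh did not pass the test, with a median of -0.24. The call of Amacr as lower was lost with a replicate block and without any 1 of 5 of the 6 libraries. That of Pex26 as lower was lost with a replicate block and without any 1 library except naive replicate 1. Pex13 lost its call as higher with no filter on low values and without peak GC replicate 3, naive replicate 1 or naive replicate 3. In a fit of the 2 groups alone the calls of Pex26 and Pex13 were lost too. Over all members 8 were higher (40.5% of all genes) and 13 lower (39.3%), with a median of -0.19 against 0.01 for all genes. The 8 include Abcd2, which passed the filter for testing only through GC libraries, so its place in the count is descriptive. Ehhadh was 2.81-fold higher (1.49 ± 0.09, adjusted p 9.29e-13), Acot8 was higher by 0.76 ± 0.08 (adjusted p 8.39e-09) and Pex2 by 0.47 ± 0.08 (adjusted p 2.03e-05). Pecr (-0.94 ± 0.16, adjusted p 1.61e-05), Abcd4 (-0.91 ± 0.09, adjusted p 1.08e-09), Hsd17b4 (-0.72 ± 0.10, adjusted p 3.46e-07) and Pex16 (-0.62 ± 0.08, adjusted p 9.53e-08) were the largest falls. Phyh differed by 0.01 ± 0.07, with a 95% interval of -0.14 to 0.15.

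Against in vivo activated cells, peak GC cells had lower levels of 9 of the 13 oxidation enzymes. The other three called enzymes, Ehhadh, Acot8 and Phyh, were higher, and the median over the 13 was -0.67. Over all members 6 were higher (34.1% of all genes) and 13 lower (35.0%), with a median of -0.12 against -0.01 for all genes. Abcd2 is counted among the 6, again descriptively, since only GC libraries passed it through the filter. Ehhadh was 3.33-fold higher (1.73 ± 0.09, adjusted p 1.25e-13), Pex6 was higher by 0.71 ± 0.07 (adjusted p 1.51e-09) and Acot8 by 0.48 ± 0.08 (adjusted p 1.35e-05). The largest falls were those of Pex11a (-1.79 ± 0.50, adjusted p 0.00292), Pecr (-1.67 ± 0.16, adjusted p 4.38e-09), Hacl1 (-1.36 ± 0.10, adjusted p 1.76e-11) and Decr2 (-1.32 ± 0.17, adjusted p 3.3e-07). Of the 13 peroxins, 9 did not pass the test, with differences from -0.12 (Pex13) to 0.21 (Pex26). At least 3 of the 4 Y-linked genes were at the floor in each library of both groups. Markers of other cells moved with this comparison: 4 of 4 neutrophil markers tested (sums 20.1 to 85.7 in peak GC against 2.15 to 2.78 in in vivo activated libraries), 4 of 4 erythroid markers (170 to 203 against 13.5 to 19.6) and 3 of 8 macrophage and monocyte markers were higher in peak GC cells. Their part in the members' differences was not tested.

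Between early and peak GC 3 members changed. Pex11g (0.52 ± 0.16, adjusted p 0.0303), Ehhadh (0.34 ± 0.09, adjusted p 0.0175) and Abcd4 (0.33 ± 0.09, adjusted p 0.0129) were higher in peak GC cells, 3 of 29 beside 5.77% of all genes. By limma 0 members were lower, beside 7.42% of all genes, while 1 had an unadjusted p under 0.05. In a fit of the 6 libraries of these 2 groups alone, 0 members passed, 5 higher and 0 lower at an unadjusted p under 0.05. The count was 1 without early GC replicate 1, peak GC replicate 1 or peak GC replicate 2, and 2 without peak GC replicate 3. Erythroid markers were lower in peak GC for 3 of 4 tested, with sums of 170 to 203 against 306 to 736 in early GC. Also lower were 1 of 8 macrophage and monocyte and 3 of 5 naive B cell markers, while 1 of 4 T cell markers was higher. The part of other cells in the 3 changes was not tested.

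From peak to late GC, 11 of 29 members were lower, beside 20.6% of all genes, and 0 were higher by limma, beside 12.0%, with 1 higher at an unadjusted p under 0.05. The largest falls were those of Pex11g (-1.07 ± 0.16, adjusted p 3.23e-05), Pecr (-0.90 ± 0.16, adjusted p 0.000276), Acaa1b (-0.80 ± 0.24, adjusted p 0.015) and Pex10 (-0.61 ± 0.16, adjusted p 0.00546). The others were Amacr (-0.58), Pex26 (-0.49), Ehhadh (-0.48), Abcd4 (-0.35), Acox3 (-0.26), Acot8 (-0.25) and Pex16 (-0.20). Of the macrophage markers 6 of 8, and of the neutrophil and erythroid markers 4 of 4 each that were tested, were higher in the same comparison. Without late GC replicate 1, which held the highest sums of these markers, 10 of the 11 were still called. That fit does not remove the marker difference. Late GC replicates 2 and 3 had macrophage and monocyte sums of 699 and 494 (115 to 266 in peak GC) and erythroid sums of 731 and 953 (170 to 203). Their neutrophil sums were 196 and 70.9 (20.1 to 85.7 in peak GC). The call of Pex16 was lost without any 1 of the 6 libraries except late GC replicate 2, and with a replicate block. Acaa1b was lost without peak GC replicate 1 or late GC replicate 3, Acox3 without peak GC replicate 1 and Acot8 without peak GC replicate 2. In a fit of the 6 libraries alone, 2 members were called. The part of other cells in these falls was not tested, and in such bulk samples fewer cells of a type and less RNA per cell cannot be told apart.

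Abcd2, a transporter of very long chain acyl-CoAs, was at the floor in 10 libraries: all 9 in vitro and 1 in vivo activated. It had -2.54, -2.66 and -2.15 in naive cells, 0.42, -0.53 and -1.78 in early, -0.72, -1.01 and 0.47 in peak and 3.11, 0.89 and -0.39 in late GC cells, so every GC library was above every naive library. It was called higher in peak GC than in naive cells (2.03 ± 0.81, adjusted p 0.0259) and than in in vivo activated cells (adjusted p 0.000279), where 1 library of 3 was at the floor, so no size is given for the second difference. The first call was lost with no filter on low values and without peak GC replicate 3, naive replicate 1 or naive replicate 2. With a pseudocount of 1 both calls were lost. Abcd2 passed the filter for testing (a log2 value of at least 0 in at least 3 libraries) only through GC libraries. Both calls therefore draw on the values that admitted the gene, and the differences are descriptive. Within each GC group the library with the highest Abcd2 was also the one with the highest macrophage and monocyte sum: early replicate 1 (314), peak replicate 3 (266) and late replicate 1 (2115). The part of such cells in the Abcd2 values was not tested.

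**Figure D4:**
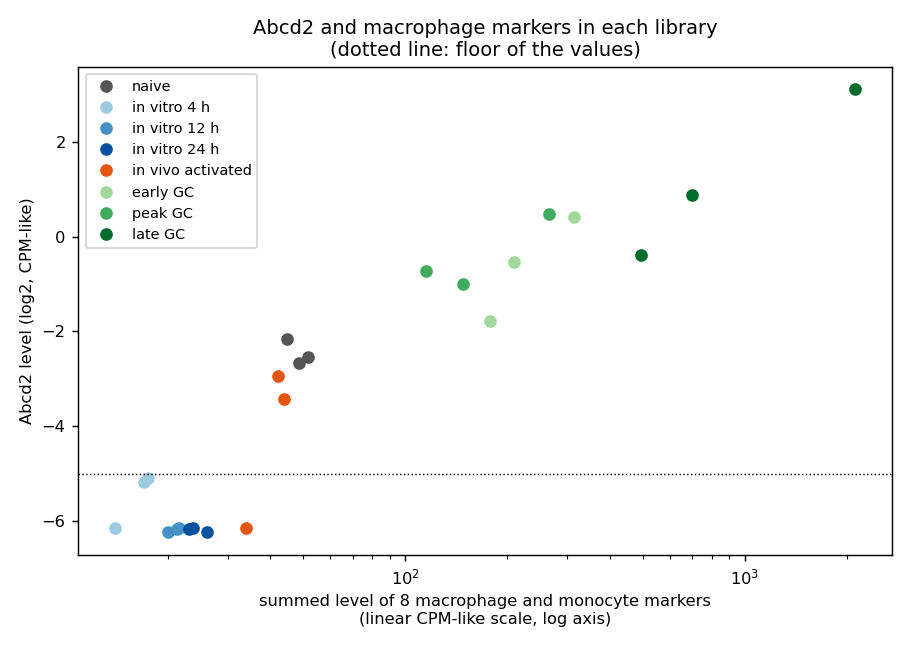
Log2 level of Abcd2 (vertical axis, dotted line at -5, the cut used as the floor) in each of the 24 libraries, coloured by group. The horizontal axis is the summed level of 8 macrophage and monocyte markers on a log axis (linear CPM-like units). Late GC replicate 1 is highest on both axes, at 3.11 and 2115, and the 9 in vitro libraries are at the floor with the lowest marker sums.

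The other genes of the organelle, listed by function, also moved in both directions. Of 14 further oxidation and transport genes tested, 10 were lower (beside 39.1% of all genes) and 3 higher (38.9%) at 4 h than in naive cells, and Eci2, an enoyl-CoA isomerase, was among the lower ones (-1.82 ± 0.07). At 24 h against 4 h, 9 were higher (36.8% of all genes) and 1 lower (39.2%), with Eci2 at 1.51 ± 0.07. Peak GC against in vivo activated cells gave 4 higher, led by Acbd5 (1.31 ± 0.13), a tether to the endoplasmic reticulum, and Crat (1.18 ± 0.10), the carnitine acetyltransferase, and 6 lower, led by Eci2 (-1.39 ± 0.07). These counts of 14 lie near the shares of all genes, 34.1% and 35.0%. The ether lipid enzyme Gnpat was higher in peak GC than in naive cells by 1.01 ± 0.05, one of 3 higher (40.5% of all genes) and 1 lower (39.3%) of 4.

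**Figure D5:**
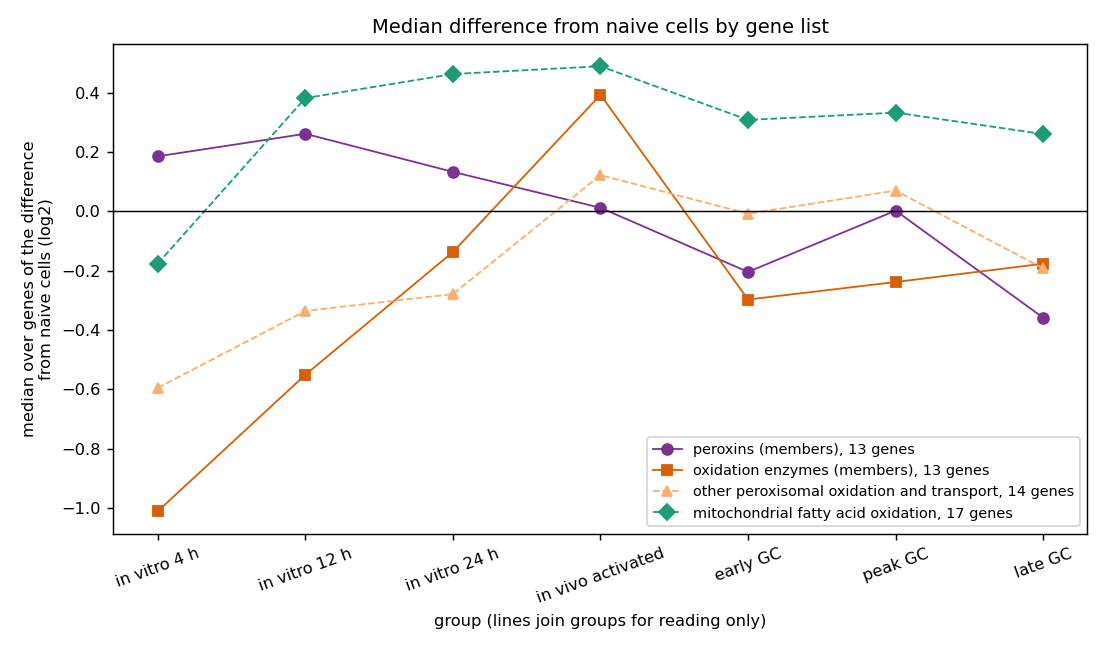
Median over the genes of each list of the difference from naive cells in group means (log2), for the member peroxins and oxidation enzymes and for 2 lists of other genes, in the 7 other groups. The member enzymes go from -1.01 at 4 h to 0.39 in in vivo activated cells and -0.24 in peak GC cells, while the peroxins stay between -0.36 and 0.26.

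Among redox and other enzymes of the organelle, 12 of which were tested, Pipox, which oxidises pipecolic acid and sarcosine, stood out in GC cells. It had -1.27, -2.42 and -0.97 in naive, -0.57, -0.16 and -0.50 in in vivo activated and 4.53, 4.83 and 4.50 in peak GC cells, a difference of 5.03 ± 0.73 between the last 2 groups (adjusted p 3.34e-06). Pipox passed the filter for testing (a log2 value of at least 0 in at least 3 libraries) only through GC libraries. Its test therefore draws on the values that admitted it, and the difference is descriptive. Cat, catalase, which removes hydrogen peroxide, was higher by 1.47 ± 0.06 in the same comparison (adjusted p 1.69e-16), among 5 higher (34.1% of all genes) and 6 lower (35.0%). Pipox is counted among the 5, descriptively. Dao, the oxidase of D-amino acids, had a mean of 1.48 in in vivo activated cells and of -5.41, under the floor, in peak GC cells. Gstk1, a glutathione transferase, was lower (-2.43 ± 0.18). At 4 h 7 of the 12 were lower than in naive cells (39.1% of all genes) and 3 higher (38.9%).

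Regulators and the neighbouring mitochondrial pathway were also read. Of 4 PPAR regulators tested, all 4 were lower in peak GC than in naive cells (39.3% of all genes), led by the coactivator Ppargc1b (-1.72 ± 0.14) and the receptor Ppard (-1.53 ± 0.13). Rxra, the partner receptor, was lower in peak GC than in in vivo activated cells (-3.53 ± 0.20). Optn, a receptor for selective autophagy, was higher by 3.32 ± 0.07 in peak GC than in naive cells, the one gene of the 5 pexophagy genes that rose (40.5% of all genes), while 3 were lower (39.3%). Of the fission genes, Dnm1l was higher by 0.55 ± 0.07 and the other two tested did not pass. Of 17 mitochondrial fatty acid oxidation genes, 1 was higher in peak GC than in in vivo activated cells, Cpt1a (1.47 ± 0.06), the entry step of the carnitine shuttle, and 11 were lower (34.1% and 35.0% of all genes), led by Decr1 (-1.17 ± 0.08) and Acadl (-1.16 ± 0.05). The member oxidation enzymes gave 3 higher and 9 lower of 13 in that comparison, and whether the 2 lists differ was not tested.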

How the data were processed

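Polyadenylated RNA libraries from 24 samples in 8 groups of 3 were analysed. The submitters' processing notes list STAR 2.6.0c, featureCounts of Subread 1.6.2, limma, cutadapt 1.8.3, FastQC 0.11.5 and the build mm10, without their roles. The counting options are not given in the sources used here. The deposited log2 values sum, once made linear, to 990678 to 1008194 per library, a CPM-like scale. Their per-gene means are equal between replicate numbers (largest difference 0.000875), as values have after an effect of replicate number is removed. Depth is not known.

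Genes with a log2 value of at least 0 in at least 3 libraries (11885, all 29 members among them) were fitted with limma 3.58.1 (R 4.3.3, trend and robust moderation) as 8 group means, 16 residual degrees of freedom, two-sided. The fit with a replicate block had 14. If an effect of replicate number was removed before deposit, the standard errors and p-values of the main fit are too small. Calls are at a Benjamini-Hochberg adjusted p under 0.05 over all genes tested. Errors after ± are standard errors. The script was tested on simulated data with 200 changed genes. Gene positions and exon lengths come from GENCODE on mm10.

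Members and gene lists were chosen with earlier results of these data known. All 29 members are named; per comparison up to 4 called members in each direction with the largest difference have values, and up to 2 genes in each direction of other lists. Some genes of these lists are not reported here. Alternatives were no filter, a filter at log2 2, a pseudocount of 1, median centring, the 2 groups alone, plain moderation, a replicate block, each library left out and a 1.5-fold rule. Counting error cannot be given without counts.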

Additional observations from a re-analysis of the deposited data

Results flagged for a closer look

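Several members differed from naive cells in opposite directions in 2 other groups, with both adjusted p under 0.05 in the fit of all groups, and the difference between those 2 groups was itself tested by limma. The naive libraries are shared by each pair of effects. Values are log2 differences.

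Between 4 h and 24 h in vitro, Pex5 was 0.46 above naive and then -0.57 (24 h minus 4 h: -1.04, adjusted p 1.25e-11). The enzymes went the other way. Decr2 was at -1.11 and then 0.57 (difference 1.67), Hacl1 at -0.64 and then 0.64 (1.28), and Hsd17b4 at -0.21 and then 0.59 (0.81).

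Between in vitro 24 h and in vivo activation, Acox3 was at -1.34 and 0.63 (in vivo minus 24 h: 1.97, adjusted p 6.42e-16), and Ech1 at -0.95 and 0.43 (1.38).

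Between in vivo activated and peak GC cells, Ehhadh was at -0.24 and 1.49 (peak GC minus in vivo: 1.73, adjusted p 1.25e-13) and Pex6 at -0.47 and 0.24 (0.71). Those that were higher in vivo and lower in peak GC cells were Pecr (0.73 and -0.94, difference -1.67), Hacl1 (1.09 and -0.26, -1.36), Hsd17b4 (0.39 and -0.72, -1.11), Acox3 (0.63 and -0.43, -1.06), Amacr (0.41 and -0.37, -0.79) and Ech1 (0.43 and -0.24, -0.67).

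Some of these movements rest on calls near the threshold. Hsd17b4 at 4 h against naive cells (adjusted p 0.045) lost its call without 5 of the 6 libraries in turn, with a replicate block, with no filter and with plain moderation. Amacr lost its call in peak GC against naive cells (adjusted p 0.0422) without 5 of 6 libraries in turn, with a replicate block, with no filter and in the 2 groups alone, and in in vivo activated against naive cells (adjusted p 0.0262) without 4 of 6. Ehhadh in in vivo activated against naive cells (adjusted p 0.022) lost it without 3 of 6 and in the 2 groups alone, and Hacl1 in peak GC against naive cells (adjusted p 0.016) without peak GC replicate 2 and in the 2 groups alone. The opposite movements that use these calls are therefore not stable. They are that of Hsd17b4 between 4 h and 24 h, and those of Amacr, Ehhadh and Hacl1 between in vivo activated and peak GC cells. The other calls behind the movements were kept in each alternative fit run, among them those of Hsd17b4 between in vivo activated and peak GC cells and of Hacl1 between 4 h and 24 h. Groups of 3 are too small for a check of single outlying libraries.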

How the results depend on the processing

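The number of members called held within 1.5 times under no filter, the stricter filter, a pseudocount of 1, median centring (which moved no library by over 0.01) and plain moderation in all 9 comparisons and the F test. Asking for at least 1.5-fold left 7 for peak GC minus naive (main 21), 9 for in vivo activated minus naive (21), 15 for 24 h minus naive (23), 9 for in vivo activated minus 24 h (18), 0 for peak minus early GC (3), 4 for late minus peak GC (11) and 12 for 24 h minus 4 h (20). Fitting the 2 groups alone gave 0 for peak minus early GC and 2 for late minus peak GC; the cause was not tested, and fewer libraries set the spread. Leaving out 1 library gave 1 to 3 members for peak minus early GC. Of 809 alternative values for the 63 named differences, 773 kept direction and call, 36 lost the call and 0 changed sign. Same-numbered libraries did not deviate together (correlation -0.37 to 0.11, median -0.13; 0 of 24 correlated best with their own number), but the equal means per replicate number in the deposited values pull such correlations below 0, so whether the numbers pair libraries cannot be read from them. With a replicate block the members called were 19 for peak GC minus naive and 2 for peak minus early GC, where Pex11g had an adjusted p of 0.057. The block also lost Amacr and Pex26 in peak GC minus naive, Pex2 in peak GC minus in vivo activated, Hsd17b4 and Abcd3 in 4 h minus naive, Pex16 in late minus peak GC and Acaa1b in 24 h minus 4 h. Without counts, low members such as Abcd2 and Pex11a have no depth-based limit.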

Other observations

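Other peroxisomal genes had large differences after activation in vitro. At 24 h against naive cells Pmvk, which makes a precursor of sterols and isoprenoids, was higher by 2.01 ± 0.10 (SE) on the log2 scale (limma adjusted p 6.39e-15), Paox, a polyamine oxidase, by 1.96 ± 0.17, and Nudt19, a CoA-cleaving hydrolase, by 1.73 ± 0.06. Crat, the carnitine acetyltransferase, was lower (-1.78 ± 0.10). Rxra, the partner receptor of the PPARs, was higher by 4.08 ± 0.20 at 24 h (adjusted p 8.11e-15), from a mean of 2.19 to 6.27, while Ppargc1b (-1.29 ± 0.14) and Ppard (-0.84 ± 0.13) were lower. From peak to late GC cells Rxra was higher by 1.90 ± 0.20, in the comparison in which the macrophage, neutrophil and erythroid markers were also higher; their part in it was not tested.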
